A study of Mus musculus with 9 samples.

Results

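Brain libraries of aged mice were divided by whether they held the transcript of Gabra6, a receptor subunit gene of cerebellar granule cells. A library counted as cerebellum-containing when Gabra6 stood over 10 FPKM (fragments per kilobase of transcript, scaled to library size), which chose C1, L1 and L3. It counted as cerebellum-free under 1 FPKM, which chose C2, C3, L2, H2 and H3. These were 8 of the 9 libraries of the series, and H1, which lay between the limits, was left out of both sets and is given beside them. The letters are the exposure groups, with L and H read as the low and the high concentration of the study's design. Group L drank water with perfluorooctane sulfonate (PFOS, a persistent fluorinated surfactant) at 0.5 µg per litre, and group H at 50 µg per litre, both for 7.5 months. The labels state no PFOS dose for group C, taken here as the comparison group. The mice were described as aged, at 24 months, and kept specific pathogen free, and the brains as perfused. Strain, sex and the part of the brain taken are not named in the labels, nor do they say whether libraries stem from different animals.

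The cerebellum-containing set thus held 1 library of group C and 2 of group L, and the cerebellum-free set 2 of C, 1 of L and 2 of H. No H library was cerebellum-containing, so set and exposure were mixed but not balanced. The library totals ranged from 15371513 to 20431208 reads, and the table held 2996 genes, of which 2226 stood over 1 FPKM in at least 3 of the 9 libraries and were compared. The libraries of a set were chosen on Gabra6, and the differences between the sets are therefore given as descriptions with no test. In bulk tissue, fewer cells of a type and less RNA per cell cannot be told apart.

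The cerebellum is built from few neuron types that share little with the forebrain. Granule cells are small, very numerous glutamatergic neurons that carry GABA-A receptors with the alpha6 subunit. Their axons, the parallel fibres, contact the dendrites of Purkinje cells, the GABAergic output neurons of the cerebellar cortex. Purkinje cells hold calcium stores gated by inositol trisphosphate, and they are rich in calcium-binding and calcium-pumping proteins. Bergmann glia clear the glutamate around their dendrites.

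The promoters of 3 genes high in the cerebellum-containing libraries and of the gene with the largest negative difference there are shown for orientation, from 250 bases before to 50 after a RefSeq transcription start. They are RefSeq sequences on GRCm38.p6, written 5′ to 3′ on the strand of the gene. Capitals mark the letters TTGGC or GCCAA, the half-site of NFI factors in either direction, and CAGATG or CATCTG, an E-box of NeuroD factors. The letters TAGGTCA or TGACCTA, the site of a single ROR receptor, were also searched and are in none of the 4 windows.
Gabra6, chr11:42321023-42321322, minus strand: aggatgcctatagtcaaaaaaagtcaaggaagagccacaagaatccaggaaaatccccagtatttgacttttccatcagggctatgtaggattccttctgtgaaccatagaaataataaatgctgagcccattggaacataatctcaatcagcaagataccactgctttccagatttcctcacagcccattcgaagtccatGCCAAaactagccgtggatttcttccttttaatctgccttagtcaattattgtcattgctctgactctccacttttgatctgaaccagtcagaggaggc
Pcp2, chr8:3625498-3625797, minus strand: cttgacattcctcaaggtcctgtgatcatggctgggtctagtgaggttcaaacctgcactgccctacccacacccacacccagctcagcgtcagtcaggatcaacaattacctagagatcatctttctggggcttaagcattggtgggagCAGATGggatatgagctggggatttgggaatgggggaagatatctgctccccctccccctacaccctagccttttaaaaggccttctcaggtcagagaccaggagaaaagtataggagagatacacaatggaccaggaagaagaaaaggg
Lhx1, chr11:84525485-84525784, minus strand: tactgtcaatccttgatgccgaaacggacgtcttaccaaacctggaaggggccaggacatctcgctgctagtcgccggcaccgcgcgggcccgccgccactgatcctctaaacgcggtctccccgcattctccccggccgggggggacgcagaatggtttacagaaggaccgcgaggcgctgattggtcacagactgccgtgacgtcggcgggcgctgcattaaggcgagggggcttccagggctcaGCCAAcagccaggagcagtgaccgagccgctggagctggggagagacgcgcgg
Stx1a, chr5:135023232-135023531, plus strand: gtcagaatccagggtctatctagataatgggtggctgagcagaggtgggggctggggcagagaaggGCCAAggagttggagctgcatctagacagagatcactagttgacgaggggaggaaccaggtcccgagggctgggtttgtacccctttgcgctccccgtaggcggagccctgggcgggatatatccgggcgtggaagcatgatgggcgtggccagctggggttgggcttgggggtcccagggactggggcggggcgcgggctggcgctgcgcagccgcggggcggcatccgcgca
Over all 32851 promoters of that length, 46.7% held the NFI half-site, 17.2% the E-box and 2.61% the ROR site. The letters are thus common, and the half-site was in the promoter of Stx1a as well as in those of Gabra6 and Lhx1. The windows of Gabra6 (42% G and C) and Pcp2 (51%) were poorer in G and C than those of Lhx1 (65.7%) and Stx1a (66.3%), with a median of 52.7% over all promoters.

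Gabra6, the alpha6 subunit of the GABA-A receptor (ENSMUSG00000020428, chromosome 11, 42306437 to 42321072, GRCm38), was at 254 FPKM in C1, 55.0 in L3 and 14.8 in L1. It was at 2.48 FPKM in H1, at 0.0603 in L2 and listed at 0 in C2, C3, H2 and H3. The means were 107.8 ± 127.9 FPKM (SD, n = 3) and 0.0121 ± 0.0270 FPKM (SD, n = 5), and these values chose the sets. They rested on 10836 reads in C1, 2513 in L3, 605 in L1, 126 in H1 and 3 in L2. A count of 0 allows up to 3 reads, or 0.0626 to 0.0784 FPKM of this gene in the 4 libraries without a read, with counting error only. The library just inside the upper limit was L1, and the cerebellum-free library nearest to the lower limit was L2.

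The Purkinje cell markers Ppp1r17 and Pcp2 had the same order of C1, L3, L1 and H1. Both were under 1 FPKM in every cerebellum-free library and passed the filter through the libraries where they are high, so their levels are a description. Ppp1r17 encodes a protein phosphatase inhibitor of Purkinje cells, the G-substrate of cGMP-dependent kinase (ENSMUSG00000002930, chromosome 6, 56017497 to 56032689). C1 had 203 FPKM, L3 45.7, L1 16.9 and H1 2.40, against 0.490 in H2, 0.111 in C3, 0.0902 in H3, 0.0854 in L2 and 0 in C2. Pcp2, a modulator of G protein signalling in Purkinje cells (ENSMUSG00000004630, chromosome 8, 3623371 to 3625545), stood at 46.6 FPKM for C1, at 6.95 for L3, at 3.17 for L1 and at 0.669 for H1. In the 5 cerebellum-free libraries it was at 0.0284 to 0.0712 FPKM. The sets did not overlap in either gene, and within the cerebellum-containing set C1 was far above L1.

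**Figure D1:**
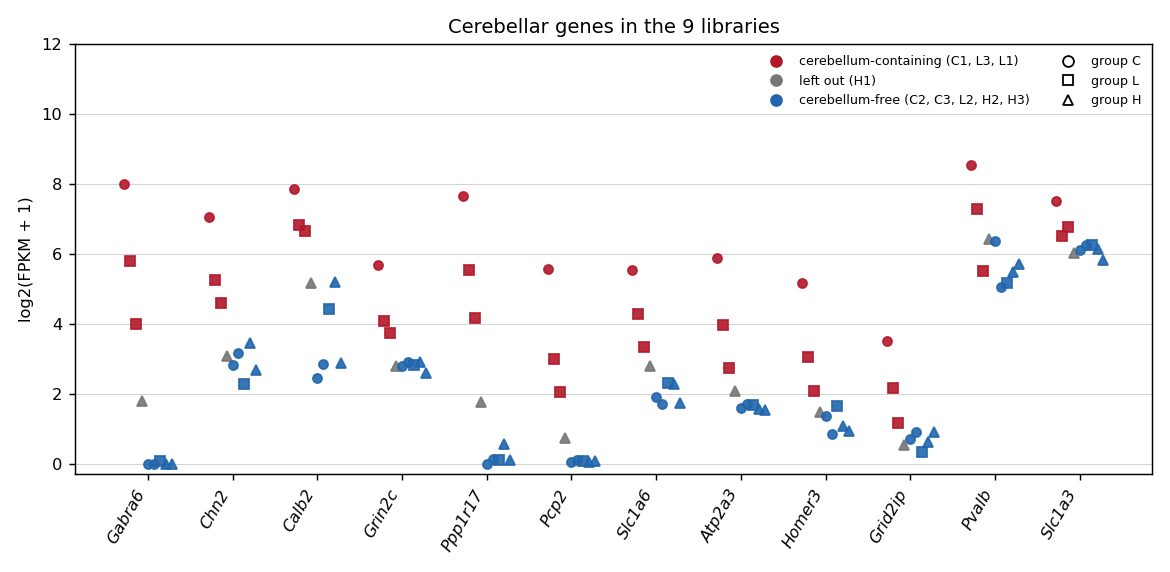
Levels of 12 cerebellar genes as log2(FPKM + 1), with 1 point for each of the 9 libraries, coloured by set and shaped by exposure group. C1 is the highest library for each gene shown, and Slc1a3, of astrocytes and Bergmann glia, and Pvalb are well above 0 in every library.

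Among the 2226 genes compared, 54 (2.43%) were higher in all 3 cerebellum-containing than in all 5 cerebellum-free libraries with a difference of at least 1 on the log2(FPKM + 1) scale. Another 47 (2.11%) were lower to the same extent. Without the condition on size, 337 genes (15.1%) lay higher without overlap and 151 (6.78%) lower. The median difference of all 2226 genes was 0.06. Of the 54 genes, 12 were at or under 1 FPKM in all 5 cerebellum-free libraries, so they passed the filter on low values through other libraries and had to differ. Of the 47 lower genes, 6 were at or under 1 FPKM in all 3 cerebellum-containing libraries.

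These counts depended on L1, the library with the least Gabra6 of its set. Without L1 there were 89 higher and 101 lower genes. Without C1 there were 50 and 40, of which 37 and 38 were among the 54 and 47. With L1 alone against the 5 cerebellum-free libraries there were 44 and 13, of which 18 and 12 were shared. The term cerebellum-containing thus covers libraries of unlike makeup, described further on.

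Of the 9 granule cell genes in the table, all passed the filter, 5 were called higher and 0 lower, with a median difference of 1.69. The count and the median include Gabra6, which chose the sets and so had to be called. The others called were Calb2, Chn2, Cnksr3 and Grin2c. Calb2 encodes the calcium-binding protein calretinin, which granule and unipolar brush cells hold (ENSMUSG00000003657, chromosome 8, 110137502 to 110168210). It was at 229 FPKM in C1, 112 in L3 and 99.1 in L1, against 4.47 in C2, 6.20 in C3, 20.7 in L2, 35.5 in H2 and 6.40 in H3, with 34.7 in H1. The means were 146.9 ± 71.7 FPKM (SD, n = 3) and 14.7 ± 13.4 FPKM (SD, n = 5). H2 and L2 were the highest of the cerebellum-free libraries for this gene, which forebrain interneurons also express.

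Chn2, the Rac-inactivating protein beta2-chimaerin (ENSMUSG00000004633, chromosome 6, 54039554 to 54301810), was at 133 FPKM in C1, 37.6 in L3 and 23.2 in L1, against 3.89 to 9.86 in the cerebellum-free libraries and 7.50 in H1. Grin2c, the NMDA receptor subunit that mature granule cells use (chromosome 11, 115249169 to 115267243), was at 50.3, 16.0 and 12.3 FPKM in C1, L3 and L1. In the cerebellum-free libraries it was at 5.08 to 6.52 FPKM, and H1 (5.96) lay within that range. The other 4 granule cell genes overlapped between the sets. They were the transcription factor gene Etv1 (0.96), the Rac activator Tiam1 (0.77), the vesicle release gene Cadps2 (0.15) and Rab3b (-0.74). In C1, Etv1 stood at 53.5 FPKM against 7.61 to 13.8 in the cerebellum-free libraries, but L1 (8.81) lay within their range.

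Of 13 Purkinje cell genes, all tested, 10 were higher without overlap and 9 of these by at least 1, with a median difference of 1.67. Of the 9, Ppp1r17, Pcp2, Lhx1 and Grid2ip were under 1 FPKM in every cerebellum-free library and passed the filter through other libraries. Genes of calcium stores were also among the 9. Homer3, a scaffold that ties membrane receptors to those of calcium stores (chromosome 8, 70282827 to 70294361), was at 35.0, 7.26 and 3.23 FPKM in C1, L3 and L1, against 0.813 to 2.17. Atp2a3, the calcium pump SERCA3 that refills the stores (chromosome 11, 72961169 to 72993044), was at 57.8, 14.7 and 5.73 FPKM, against 1.88 to 2.25. In both genes L1 lay closer to the cerebellum-free libraries than to C1.

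Slc1a6, the glutamate transporter EAAT4 of Purkinje cell spines (chromosome 10, 78780496 to 78814765), was at 45.7 FPKM in C1, 18.6 in L3 and 9.10 in L1, against 2.27 to 3.95 in the cerebellum-free libraries. Grid2ip, the scaffold delphilin of parallel fibre synapses, was at 10.5, 3.49 and 1.23 FPKM, against 0.258 to 0.884. Lhx1, a LIM homeodomain transcription factor kept by Purkinje cells (ENSMUSG00000018698, chromosome 11, 84518284 to 84525535), was at 30.7, 11.5 and 3.67 FPKM, against 0.016 to 0.291. The calcium channel gene Cacna1g, of low-threshold currents, differed by 1.18 and Clmn by 0.66, both without overlap. The other 3 genes overlapped between the sets. Pvalb, a calcium buffer shared with fast-spiking interneurons of the forebrain, was at 368 FPKM in C1, 155 in L3 and 44.9 in L1, against 31.9 to 82.2, so that L1 lay within the cerebellum-free range. Nefh, the heavy neurofilament of large axons, was highest in L3 (386 FPKM, against 77.4 in C1 and 37.8 in L1), and Ppp1r12a differed by -0.24.

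Genes of the smaller cerebellar populations were mixed. Kit, a receptor of molecular layer interneurons, was at 34.8, 16.1 and 8.46 FPKM in C1, L3 and L1, and L2 of the cerebellum-free set (14.6) lay above L1. Pax2, a transcription factor of cerebellar interneuron precursors, was at 3.18 and 8.96 FPKM in C1 and L3 but at 0.316 in L1, under H2 (0.537), and did not pass the filter. Among 6 Bergmann glia genes, 5 tested, 0 were called. The glutamate transporter gene Slc1a3 was at 180 FPKM in C1, 89.8 in L3 and 109 in L1, against 55.8 to 75.2, a difference of 0.82 without overlap. Septin4 (0.57), Fabp7 (0.39) and Gria1 (-0.04) overlapped. Etv5 was lower, at 18.8 to 27.1 against 29.6 to 55.3 FPKM (-0.97).

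Of 8 transcription factor genes that pattern the cerebellum and the isthmus, 4 passed the filter. Lhx1, Irx2 and Meis1 were called higher, and the forebrain and midbrain gene Otx1 overlapped (-0.77). Lhx1, Irx2 and Meis1 were under 1 FPKM in every cerebellum-free library, so they passed the filter through other libraries. Meis1, which granule cells keep, was at 5.27, 3.88 and 1.29 FPKM in C1, L3 and L1, against 0.223 to 0.930. Irx2, of the hindbrain, was higher in L3 (5.70 FPKM) than in C1 (3.11), was at 0.390 in L1 and reached 3.18 in H1, against at most 0.312 in the cerebellum-free libraries. Irx2 in H1 therefore did not follow the order of Gabra6. Otx1 was at 0.0967 FPKM in C1, 0.0101 in L3 and 0.607 in L1, against 0.466 to 1.57 in the cerebellum-free libraries, so L1 alone lay within their range. The 4 below the filter were Pax2, Pax3, Pax5 and Lhx9, of which Pax3 was at 0.961 FPKM in C1, 0.643 in L3 and 0.069 in L1, against at most 0.0522.

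Some genes were nearly absent from the cerebellum-free libraries. In 8 genes every cerebellum-free library was under 1 FPKM and C1 was over 10 FPKM: Gabra6, Ppp1r17, Pcp2, Lhx1, Grid2ip, Zfp385c, Il16 and Dpf3. They were picked for these values and include Gabra6, which chose the sets, so the percentages describe these genes alone. In L3 they stood at 14.9% to 39.5% of their level in C1, with a median of 26.4%. In L1 they stood at 5.84% to 18.5% (median 9.91%), and in H1 at 0.977% to 15.3% (median 2.70%). Pcp2 was the lowest in L3, Gabra6 was the lowest in L1 and H1, and Dpf3, a chromatin remodelling subunit, was the highest in all 3 libraries. Each of the 8 genes kept the order L3, L1, H1. In L3 the granule cell gene Gabra6 (21.7%) and the Purkinje cell gene Ppp1r17 (22.6%) stood close to each other, and Pcp2 (14.9%) and Lhx1 (37.3%) on either side of them.

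**Figure D2:**
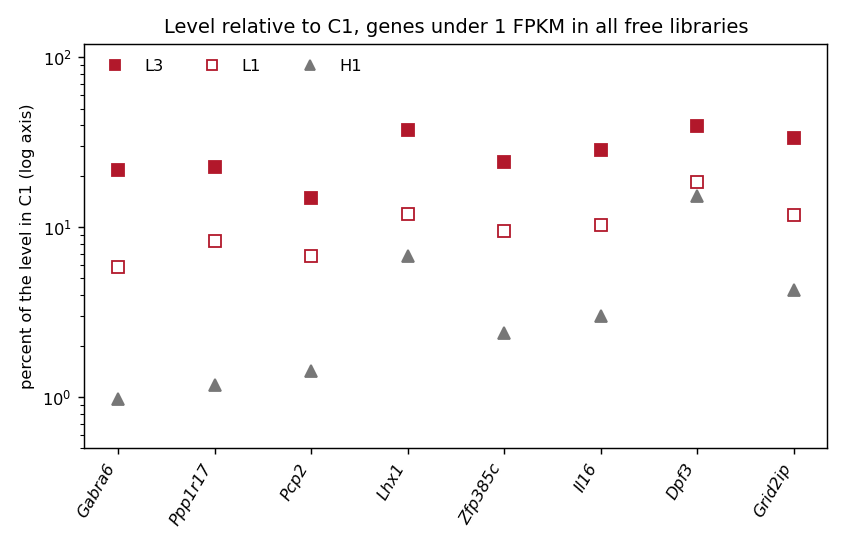
Level in L3, L1 and H1 as a percentage of the level in C1 (log axis) for the 8 genes that were under 1 FPKM in every cerebellum-free library and over 10 FPKM in C1, ordered by their level in C1. L3 lies at 14.9% to 39.5%, L1 below it and H1 lowest for each gene.

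Outside the cerebellar lists, the genes with the largest positive differences included Zfp385c (2.63), Il16 (2.06), Sparc (1.98), Itih3 (1.98) and Steap2 (1.92). Il16, whose neuronal form is known from the cerebellum, was at 14.7, 4.19 and 1.51 FPKM in C1, L3 and L1, against 0.198 to 0.731. Sparc and Itih3 had another pattern. Sparc, a matricellular protein of glia and vessels (ENSMUSG00000018593, chromosome 11, 55394500 to 55423183), was at 205 FPKM in C1, 349 in L3 and 247 in L1, against 53.8 in C2, 52.5 in C3, 68.9 in L2, 136 in H2 and 43.6 in H3, with 184 in H1. The means were 266.7 ± 74.3 FPKM (SD, n = 3) and 71.0 ± 37.5 FPKM (SD, n = 5). Itih3, a hyaluronan-binding protein of astrocytes, was at 31.1, 51.0 and 44.4 FPKM, against 6.14 to 8.92 in C2, C3, L2 and H3, with 26.9 in H2 and 26.8 in H1. For both genes C1 was the lowest of its set and H2 stood far above the other cerebellum-free libraries.

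Of the 54 higher genes, the highest of the 3 cerebellum-containing libraries was C1 for 44, L3 for 9 and L1 for 1, and 41 followed the order C1, L3, L1. Relative to the mean of the cerebellum-free libraries, the median difference of C1 was 2.19, that of L3 1.54 and that of L1 0.84. The share of the shift that L1 reached, against the mean of C1 and L3, had a median of 43.8%. In H1, the library left out, 49 of the 54 genes lay above the cerebellum-free mean, 29 lay above all 5 cerebellum-free libraries, and the median difference was 0.34. The 54 genes were picked for low values in these 5 libraries, and the same shares over all genes were not counted. The median transcript length of the 54 genes, 4361 bases, was near that of all genes compared (4308).

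**Figure D3:**
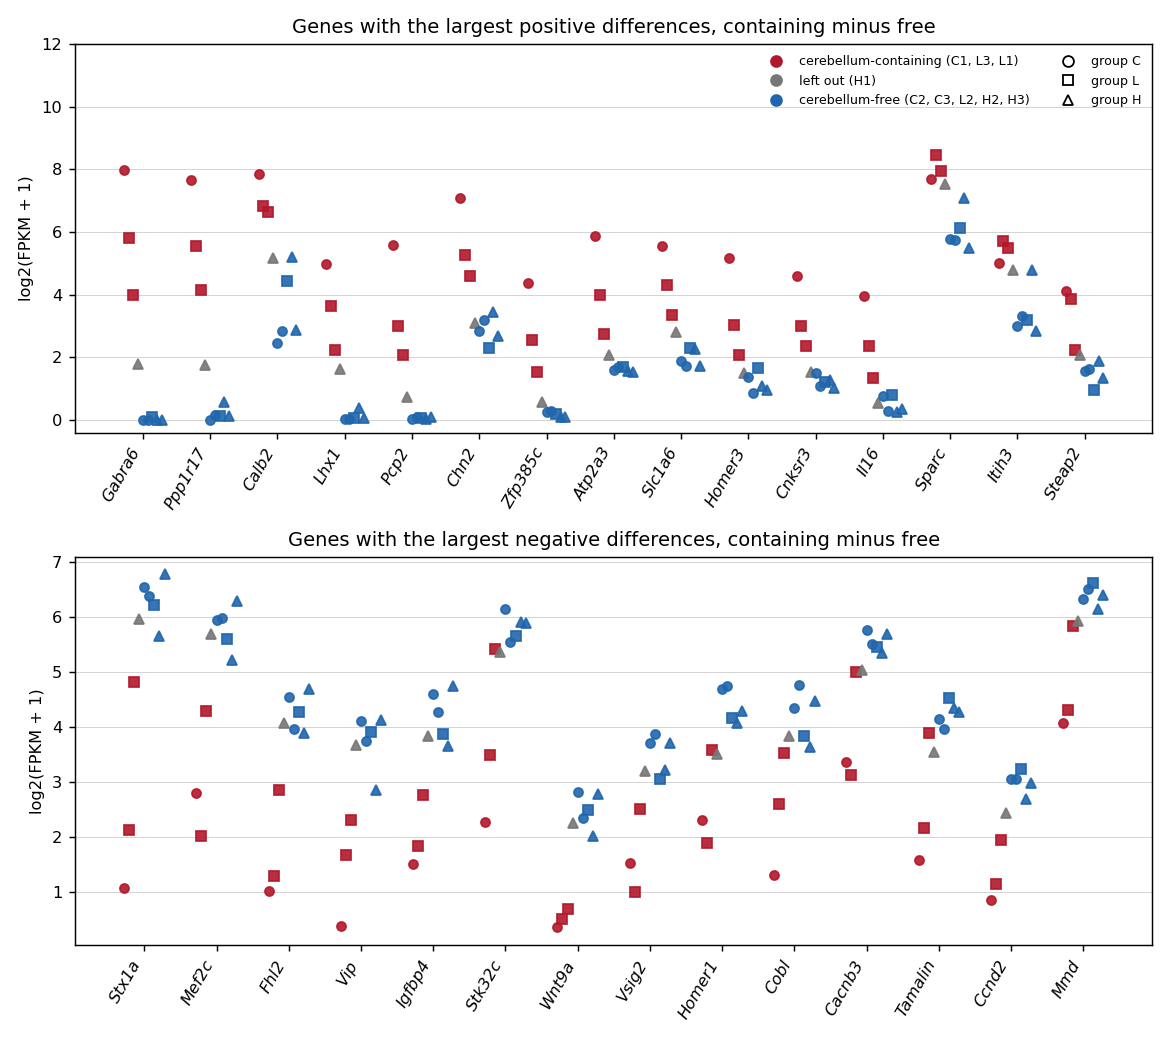
Genes among the 15 with the largest positive (top) and the 15 with the largest negative (bottom) difference between the sets, as log2(FPKM + 1) with 1 point a library. In the top panel C1 is mostly the highest library, and in the bottom panel L1 mostly lies between C1 and L3 below and the cerebellum-free libraries above.

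Genes lower in the cerebellum-containing libraries included several of the forebrain. Stx1a, a syntaxin of the presynaptic membrane that many neurons use (ENSMUSG00000007207, chromosome 5, 135023482 to 135051100), had the largest negative difference (-3.64). It was at 1.11 FPKM in C1, 3.35 in L3 and 27.1 in L1, against 92.3 in C2, 82.7 in C3, 73.7 in L2, 49.2 in H2 and 109 in H3, with 61.0 in H1. The means were 10.5 ± 14.4 FPKM (SD, n = 3) and 81.3 ± 22.1 FPKM (SD, n = 5). C1 and L3 were thus far below the cerebellum-free libraries, and L1 lay between.

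Of 6 pallial genes, a list that counted Stx1a, all were tested, 4 were called lower, 0 higher, with a median difference of -2.52. Mef2c, a transcription factor of cortical neurons (chromosome 13, 83504034 to 83667080), was at 5.95, 3.03 and 18.6 FPKM in C1, L3 and L1, against 35.9 to 76.9. Ccn2, secreted by neurons of the deepest cortical layer, was at 2.12, 4.44 and 8.50 FPKM, against 8.73 to 16.7. Lhx2, a cortical selector gene, was at 0.332 and 0.261 FPKM in C1 and L3, but at 6.30 in L1, just above H2 (6.06), so that the sets overlapped. Prox1 went the other way (0.75), with overlap. The summed pallial level was 20.99, 17.5 and 78.4 FPKM in C1, L3 and L1, against 122 to 226 in the cerebellum-free libraries. Of these sums Stx1a was 1.11, 3.35 and 27.1 FPKM, against 49.2 to 109. In C1 and L3 the sums held more Prox1 (11.4 and 6.41 FPKM) than Stx1a.

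Of 2 forebrain interneuron genes, 1 was called lower. Vip, a neuropeptide of cortical interneurons, was at 0.308, 2.18 and 3.98 FPKM in C1, L3 and L1, against 6.26 in H2 and 12.4 to 16.5 in the others of the cerebellum-free set. Sst, the somatostatin precursor, was at 15.6 and 62.4 FPKM in C1 and L3, whereas L1 (233) lay above all the cerebellum-free libraries (157 to 213). Further genes among the 15 with the largest negative differences were the LIM domain gene Fhl2 (-2.55), the growth factor binding gene Igfbp4 (-2.19), the kinase gene Stk32c (-2.10), the ligand gene Wnt9a (-1.97), the actin nucleator gene Cobl (-1.73), the receptor scaffold gene Tamalin (-1.71), the cyclin gene Ccnd2 (-1.69), Vsig2 (-1.83) and Mmd (-1.66). Wnt9a was low in all 3 cerebellum-containing libraries alike, at 0.280 to 0.623 FPKM, against 3.04 to 6.03.

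Of the 47 lower genes, the lowest of the 3 was C1 for 26, L3 for 21 and L1 for 0. From the cerebellum-free mean, C1 had a median difference of -1.93, L3 of -1.72 and L1 of -0.68. In 34 of them C1 and L3 were both lower by at least 1 while L1 was not. In H1, 42 of the 47 lay below the cerebellum-free mean and 23 below all 5 cerebellum-free libraries, with a median difference of -0.37. Among the genes picked, H1 thus mostly lay in the direction of the cerebellum-containing set, with a median difference smaller in size than that of C1, L3 or L1. In 14 of the 47 lower and 5 of the 54 higher genes, H1 lay beyond the mildest cerebellum-containing library. The shares over all genes were not counted, so these counts have no baseline.

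Related genes lay on opposite sides. In the Homer family, Homer3 differed by 2.25, whereas Homer1, a scaffold of forebrain synapses, was at 3.94, 2.69 and 10.95 FPKM in C1, L3 and L1, against 15.8 to 25.7 (-1.80). Among calcium pumps, Atp2a3 differed by 2.59 and Atp2b1, of the plasma membrane, by -1.23. Of 10 tested voltage-gated calcium channel genes, Cacna2d2 (1.76) and Cacna1g (1.18) were called higher and the beta subunit gene Cacnb3 (-1.72) lower. Cacna2d2, an auxiliary subunit that Purkinje cells hold, was at 35.1, 21.4 and 29.1 FPKM in C1, L3 and L1, against 4.69 to 15.04, so it did not follow the order of Gabra6. Cacnb3 was at 9.26, 7.71 and 31.1 FPKM, against 39.4 to 53.0.

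Glutamate and GABA-A receptor subunits are given beside all 2226 genes, of which 54 (2.43%) were called higher and 47 (2.11%) lower. Of 6 ionotropic glutamate receptor genes, Grin2c was called higher and 0 lower. Grin2d lay higher (0.88) and Gria3 lower (-0.80), both without overlap and under a difference of 1. The AMPA receptor gene Gria1 differed by -0.04. Of 8 tested GABA-A and glycine receptor genes, of 10 in the table, only Gabra6, which chose the sets, was called. The median difference was -0.09. Gabrb2, a beta subunit, was at 20.6 FPKM in C1, 5.73 in L3 and 8.78 in L1, against 9.70 to 11.98 in the cerebellum-free libraries. C1 was thus the highest and L3 the lowest library for Gabrb2, and the mean difference of -0.08 covers both. For the glycine receptor gene Glra1, of brainstem and spinal cord, L3 stood at 35.2 FPKM, C1 at 1.96 and L1 at 1.36, while H2 reached 4.66.

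Markers of other regions differed from library to library, also within each set, and their part in the differences was not tested. L3 held genes of the hindbrain. Hoxa4 and Hoxa2, which hindbrain and spinal segments express, were at 12 and 3.47 FPKM in L3 and at 0.135 and 0.0606 in H2. C1 had 0.0366 FPKM of Hoxa4, and both genes were otherwise listed at 0. Dbh, which makes noradrenaline, was at 4.45 FPKM in L3 and at most 0.220 elsewhere. The summed level of 12 Hox genes was 19.6 FPKM in L3, 5.20 in H2, 0.131 in C1, 0.177 in H1 and 0 in L1, C2, C3, L2 and H3. That of 12 brainstem neuron genes was 75.1 FPKM in L3, 9.06 in C1 and 15.3 in L1, against 3.82 to 12.6 in the cerebellum-free libraries, with 24.3 in H1. The sums of C1 were thus near the cerebellum-free level for these lists, and those of L3 were not. Of 4 tested brainstem neuron genes 1 was called higher, Th (1.82). Th was at 3.45, 7.61 and 6.71 FPKM in C1, L3 and L1, against 0.296 to 2.73 in the cerebellum-free libraries.

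L1 held genes of the striatum and hypothalamus. The striatal sum over 4 genes was 74.5 FPKM in L1, against 2.50 in C1 and 4.02 in L3. In the cerebellum-free set it was 67.4 in H2, 35.5 in C3 and 29.0 in C2 but 5.71 in L2 and 4.43 in H3. Adora2a, the adenosine receptor of striatopallidal neurons, was at 26.4 FPKM in L1 and at 0.362 and 0.570 in C1 and L3 (H2 26.5). The hypothalamic sum over 10 genes was 328 FPKM in L1, 161 in L3 and 104 in C1, against 62.3 to 137. Most of it in L1 was Hap1 (132 FPKM), Ahi1 (96.6) and Peg3 (53.9). These were also present in every cerebellum-free library, at 17.5 FPKM or more. Trh, the precursor of thyrotropin-releasing hormone, was at 29.1 FPKM in L1 and at most 5.32 in any other library. The hypothalamic factor gene Nkx2-1 was at 3.24 FPKM in L1, 0.041 in C1 and 0 in L3, against 0 to 1.06 (H2) in the cerebellum-free libraries. With L1 alone against the cerebellum-free libraries the median striatal difference was 1.67, against -0.61 with all 3. The direction for striatal genes therefore depended on C1 and L3.

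**Figure D4:**
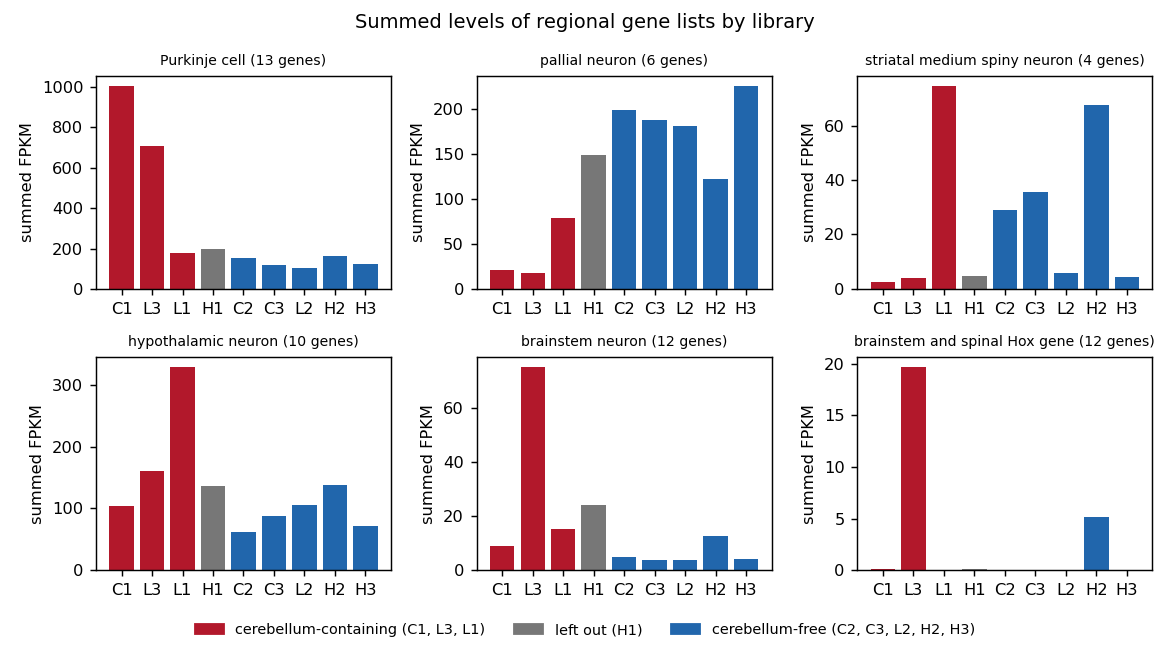
Summed FPKM of 6 regional gene lists in each library (linear axes from 0, colours by set, with the number of genes in each list). Purkinje sums are highest in C1 and L3, where Nefh is 386 of the 709 FPKM of L3. Pallial sums are lowest in C1 and L3, striatal and hypothalamic sums are highest in L1, and Hox and brainstem sums are highest in L3. The hypothalamic sum of L1 is mostly Hap1, Ahi1 and Peg3, which are present in every library.

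Glial genes are given beside the counts over all genes. Over all 2226 genes, 1284 had a positive difference, 337 (15.1%) lay higher without overlap and 151 (6.78%) lower. All 7 oligodendrocyte genes had a positive difference (median 0.53), 2 without overlap and 0 called. L3 held the highest level of each, as for Bcas1 (164 FPKM, against 50.5 in C1, 49.5 in L1 and 19.1 to 56.8 in the cerebellum-free set). Of 11 astrocyte genes 10 were positive (median 0.32), 3 lay higher and 1 lower without overlap, and Itih3 was called. Aldoc, the glycolytic enzyme zebrin II of astrocytes and Purkinje cell stripes, was at 455, 552 and 294 FPKM in C1, L3 and L1, against 195 to 258 (0.91). The forebrain's main glutamate transporter gene Slc1a2 went the other way, at 92.4 FPKM in C1, 182 in L3 and 189 in L1, against 238 to 290 (-0.84). Neither Aldoc nor Slc1a2 reached a difference of 1.

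Lists of the basic cell machinery had negative medians, whereas 942 of all 2226 genes had a negative difference and their median was 0.06. Of 12 tested ribosomal protein genes 11 had a negative difference (median -0.33) and 1, Rps15a, a positive one (0.25, without overlap). Respiratory chain genes were negative in 17 of 21 (median -0.24) and proteasome genes in 8 of 13 (-0.11). The summed ribosomal level was 431 to 634 FPKM in the cerebellum-containing and 417 to 798 in the cerebellum-free set. The 5 pan-neuronal genes had a median difference of 0.10, with 3 positive and 2 negative and 0 called. Of microglial genes 0 of 3 and of endothelial genes 0 of 6 were called.

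Motif content of the promoters was also compared, as a description. Promoters were found for 47 of the 54 higher and 35 of the 47 lower genes. The NFI half-site was in a promoter of 59.6% of the higher, 60% of the lower and 57.1% of all compared genes with a promoter. The E-box was in 19.1%, 17.1% and 13.8%, and the ROR site in 4.26%, 2.86% and 2.46%. The shares of both gene groups were near that of all genes.

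Whether PFOS groups differed once the sets were allowed for was tested, since exposure comes from the labels and was not used to form the sets. The 8 libraries were fitted in limma with the 3 exposure groups and the set as an additive term. At a Benjamini-Hochberg adjusted p under 0.05, 0 of 2226 genes (0%) were called for H against C, for L against C and for H against L, with lowest adjusted p of 0.999, 0.669 and 0.998. At an unadjusted p under 0.05 there were 16, 159 and 41 genes (limma-voom on recovered reads: 0 called, with 16, 172 and 44). The set enters as present or absent, whereas Gabra6 ranged from 14.8 to 254 FPKM within the cerebellum-containing set.

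The exposure differences were also fitted with no set term over all 9 libraries. That fit drops the term and adds H1, so what each of these does to the values cannot be told apart. In H against C, 24 genes differed by at least 1 in the fit of 9 libraries and 3 in the fit of 8 with the term. The median size over all genes was 0.16 and 0.12. In H against L the number was 24 and 13, and in L against C it was 17 and 32.

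The genes with the smallest p-values are given with their levels. In H against C they were Pfdn2 (0.55 ± 0.17 SE), Mrpl22 (0.58 ± 0.19) and Mafk (0.44 ± 0.16) in the higher direction, and the deubiquitinase gene Otub2 (-0.66 ± 0.17), the aldehyde dehydrogenase gene Aldh3a1 (-0.78 ± 0.22) and Osbp2 (-0.51 ± 0.18) in the lower (limma, adjusted p = 0.999 for each). Otub2 was at 5.56 and 6.29 FPKM in H2 and H3, against 10.4 and 8.89 in C2 and C3 of the same set, while C1 (5.24), L1 (5.12) and L3 (4.04) were as low as the H libraries. In L against C they were the arginine methyltransferase gene Prmt2 (0.89 ± 0.17), the matrix gene Fbln5 (0.85 ± 0.19) and the protease inhibitor gene Timp2 (1.56 ± 0.35), and Jup (-0.82 ± 0.19), Akt2 (-0.56 ± 0.14) and Osbp2 (-0.62 ± 0.16; limma, adjusted p = 0.669 for each). Prmt2 was higher in L than in C within both sets, at 22.2 and 15.7 FPKM in L1 and L3 against 8.62 in C1, and at 19.6 in L2 against 11.1 and 11.5 in C2 and C3. Timp2 was also higher in L within both sets, at 170 and 116 FPKM against 28.3, and at 146 against 72.9 and 89.9. Jup, a junction protein gene, was higher in the cerebellum-containing set throughout, at 9.52 to 23.9 against 4.03 to 7.16 FPKM.

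In H against L the smallest p-values belonged to the ligand gene Wnt3 (0.85 ± 0.26), the clock gene Cry1 (0.67 ± 0.24) and Septin4 (0.79 ± 0.28), and to the matrix genes Efemp1 (-0.91 ± 0.21) and Fbln1 (-0.88 ± 0.26) and the actin-binding gene Cnn2 (-0.79 ± 0.22; limma, adjusted p = 0.998 for each). For Wnt3, which granule cells express, the difference was -0.16 in the fit of 9 libraries with no set term, which also holds H1. Its level was 7.01, 3.86 and 3.01 FPKM in C1, L3 and L1, and 0.455 in L2 against 1.75 and 1.01 in H2 and H3. Within the cerebellum-free set, L2 is the only L library beside the H libraries, and the fit reaches L1 and L3 through the set term. Without L2 the number of genes at an unadjusted p under 0.05 was 251 in H against L and 405 in L against C, with 0 called in both (lowest adjusted p in limma 0.186 and 0.0561).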

How the data were processed

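Per the labels, mRNA of mouse brain was sequenced, with 3 libraries in each exposure group. FPKM by gene and library, beside gene lengths, is what the authors' single deposited table holds, per the file headers. GRCm38 is the build in the submitters' processing notes. How reads were aligned and counted is not stated in what was used here. The table held 2996 genes with Ensembl numbers from 1 to 21270, and other genes were not analysed here. For 20 genes alone its coordinates were those of GENCODE M21 (GRCm38), so positions were taken from GENCODE M21 by identifier, which matched for all 2996.

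FPKM times length gave whole reads within 0.01 for 100% of values, from which library totals and reads per gene were recovered. On 1 kb, 3 reads correspond to 0.147 to 0.195 FPKM. Values were transformed to log2(FPKM + 1), a scale that compresses differences of low genes, and the filter asked for more than 1 FPKM in 3 or more libraries. A gene was called between the sets at a difference of means of at least 1 and no overlap, as a description. Exposure was tested with limma 3.58.1 (R 4.3.3; trend, robust, 4 residual degrees of freedom, two-sided, Benjamini-Hochberg over 2226 genes), a script tested on simulated data. Since no label names separate animals, p-values reflect sample-to-sample spread that could be technical. Named genes were the 15 with the largest difference in each direction without overlap, members of the cerebellar lists, up to 4 of each other list of the 35, and the 3 smallest p-values per direction. Some genes are not reported here. The members and lists were chosen with earlier results of these data known. Other steps used Python 3.11.15 (pandas 2.3.3, matplotlib 3.10.9).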

Additional observations from a re-analysis of the deposited data

Results flagged for a closer look

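Within the 5 cerebellum-free libraries, 49 genes were examined for a library far from the others, and 9 had one. The limit gives about 1 in 20 for independent, normally spread values. Genes listed at 0 in 4 libraries are not such values, so the share was not set against chance. In 7 of the 9 it was H2. Glra1 stood at 4.66 FPKM in H2, Th at 2.73, Itih3 at 26.9 and Sparc at 136. The Hox genes Hoxb6 (1.45 FPKM), Hoxc6 (1.47) and Hoxb9 (1.13) were also detected there, against 0 in the other 4 cerebellum-free libraries. The more posterior Hoxb9 was at 0.0212 FPKM in L3, while Hoxb6 and Hoxc6 were at 2.25 and 1.81 there. L2 stood apart for Kit (14.6 FPKM) and Gria1 (131).

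H1, left out of both sets, stood above all cerebellum-free libraries for Gabra6, Ppp1r17, Tph2 and Slc6a4. Gabra6 was at 2.48 and Ppp1r17 at 2.40 FPKM. The serotonin synthesis enzyme gene Tph2 was at 5.27 FPKM and the serotonin transporter gene Slc6a4 at 1.76, against at most 0.417 and 0.035 in the cerebellum-free libraries. L3 alone was higher for both, at 7.72 and 3.36 FPKM.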

How the results depend on the processing

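Counts of called genes were within 1.5 times of 54 higher and 47 lower under most alternatives. The exceptions were 84 higher at a pseudocount of 0.1, 24 higher and 18 lower with H1 counted among the cerebellum-containing libraries, 12 and 7 at a difference of at least 2, 13 lower without C1 and L3, and 89 higher and 101 lower without L1. Leaving out each library in turn gave 50 to 89 higher and 40 to 101 lower genes. Scaling by median of ratios or quantiles moved the median of all genes from 0.06 to -0.0018 and -0.0038 and changed the sign of the microglial and choroid plexus medians alone. For 41 genes under 16 alternatives each, none of 656 differences changed sign, and 49 moved by more than 1 SD, of which 34 without C1 and L3. The 41 genes were chosen for no overlap between the sets. Leaving out libraries, another pseudocount or another filter therefore could not change their sign.

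The exposure comparisons had 0 called genes under every alternative run. At an unadjusted p under 0.05 the 16 genes of H against C became 46 without C2, 30 without C3, 5 without H2, 31 without H3, 37 in the cerebellum-free libraries only, 36 with no filter on low values, 71 with no set term and 75 with log2(Gabra6 + 1) in its place, both over 9 libraries with H1. The 159 of L against C became 59 without C1, 405 without L2 and 87 with no set term, and the 41 of H against L 23 without C2, 251 without L2, 17 without H2 and 86 with no filter. With the replicate number as a block, 0 genes were called, with 16, 113 and 45 at an unadjusted p under 0.05. Correlations of the deviations of same-numbered libraries ran from -0.579 to 0.128. The fit of group and set ties these deviations to each other, so they cannot show whether same-numbered libraries are related. With 3 libraries in 1 set and 5 in the other, and depth of 15371513 reads or more, the number of libraries limits the precision, and depth limits it for low genes.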

Other observations

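In all, 7 genes were over 1 FPKM in 1 library and at least 10 times the level of any other, chosen after their values were seen. Of these, 5 were in L3, among them Hoxa4, Hoxa2 and Dbh, described above, and Gcg. Gcg encodes preproglucagon, which neurons of the nucleus of the solitary tract in the hindbrain make, and was at 3.39 FPKM in L3 and at most 0.0354 elsewhere. The other two were in H2: Hoxb9, at 1.13 FPKM, and the growth hormone gene Gh, a product of the pituitary, at 1.62 FPKM and listed at 0 in the other 8 libraries. No gene met this limit in C1, L1 or the other 5 libraries. Relative to the mean of the cerebellum-free libraries, C1 had 161 genes higher and 136 lower by at least 1, L3 104 and 107, L1 45 and 13, and H1 18 and 5.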
